A study of Arabidopsis thaliana with 4 samples.

Results

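The genes carried by the plastid genome of Arabidopsis thaliana were followed across shoot apices of 4 genotypes on Affymetrix arrays. The members were all probe sets listed with a single gene that lies on the plastid genome in the RefSeq gene table. This gave 69 of the 22746 probe sets on the arrays, each for a different protein-coding gene. They comprised 33 photosynthesis genes (5 psa, 15 psb, 6 pet, 6 atp and rbcL), 10 ndh genes, 4 rpo genes, 15 ribosomal protein genes (7 rpl and 8 rps), 2 ycf genes and 5 others (accD, ccsA, cemA, clpP and matK). Another 8 probe sets were listed with both copies of a gene that the table holds in duplicate and were not members.

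One array each was made for Col-0 wild type, for as1-1 and as2-1 mutants and for plants that overexpress AS2, the last 3 also labelled as Col-0 plants. The nuclear proteins AS1, of the MYB class, and AS2, of the LBD class, act together in leaf primordia. Plants were grown on soil for 14 days under 16 hours of light and 8 hours of dark, and shoot apices bearing leaf primordia were harvested. The molecular lesions of both alleles, the promoter that drives AS2 in the overexpressing line and the number of plants per RNA sample are not given in the sources used here. A free-text label mentions embryos, which does not match the tissue and growth labels; the latter were followed. With 1 array per genotype there is no replicate, so no test was run, no value below carries an error between plants, and each difference describes these 4 arrays.

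The plastid genome is a remnant of a cyanobacterial genome. It encodes core subunits of the photosystems, of the cytochrome b6f complex, of the ATP synthase and of an NADH dehydrogenase-like complex, the large subunit of Rubisco, and part of the plastid's own transcription and translation machinery. Most of its genes are transcribed together in polycistronic units by a bacterial-type polymerase, whose core is encoded by the rpo genes and whose sigma factors come from the nucleus, and by a phage-type polymerase encoded in the nucleus. Transcripts are then cut, edited and stabilised by nuclear-encoded proteins. In shoot apices, undifferentiated proplastids of the meristem become chloroplasts as leaf primordia turn green. Plastid mRNAs in general lack long poly(A) tails, and the cRNA was made by the array maker's standard protocol, which primes on such tails; what part this had in the signals was not tested. In whole apices, fewer green cells, fewer plastids and less plastid RNA per cell cannot be told apart.

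All 69 members had signals above the floor of 42.9 used here for dim probe sets, on all 4 arrays. Signals below are the deposited linear values, and differences are on the log2 scale after the arrays had been given a common median over their brighter probe sets, a step that moved none by more than 1.85%. The arrays' median signals ran from 75.7 to 82.5 over all probe sets. The named markers of the shoot apex or leaf primordia, YAB3 and PHV, were above the floor on every array (369.1 to 434.3 and 275.4 to 473.3), while the stem cell marker CLV3 was below it on all 4. The flower, root, epidermis and vascular lists had no named probe set in the table used here.

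Taken as a set, the plastid genome genes were slightly lower on the as1-1, as2-1 and AS2 overexpressing arrays than on the wild type array. The median log2 difference from wild type was -0.24 for as1-1 (1.18-fold lower), -0.16 for as2-1 (1.12-fold lower) and -0.28 for the AS2 overexpressing array (1.21-fold lower). Over all probe sets measured in the same comparisons the medians were -0.03, -0.04 and -0.02. Of the 69 members, 50 were lower than wild type in as1-1, 44 in as2-1 and 53 under AS2 overexpression, where 54%, 54.2% and 53.1% of all probe sets were lower. These comparisons share the wild type array. After quantile normalization the medians shrank to -0.10 in as1-1 and -0.02 in as2-1 and stood at -0.20 in the AS2 overexpressing line, and after loess they were -0.10, -0.04 and -0.25.

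Differences of 2-fold were rare among them. Only ndhF differed by that much from wild type, in as1-1, which makes 1 of 69 members beside 3.17% of the 14314 probe sets measured in that comparison. For as2-1 the count was 0, beside 3.64% of all probe sets, and for the AS2 overexpressing array it was also 0, beside 2.29%. At 1.5-fold, 8 members differed from wild type in as1-1 (11.6%, beside 16% of all probe sets). Of these 2 were higher, beside 7.08%, and 6 lower, beside 8.9%. The as2-1 array had 6 (8.7%, beside 16.6%), with 2 higher, beside 7.54%, and 4 lower, beside 9.01%. The AS2 overexpressing array had 8 (11.6%, beside 12.2%), with 1 higher, beside 5.13%, and 7 lower, beside 7.09%. Each total was thus below its background, for the AS2 overexpressing array only just. Only the share lower in the AS2 overexpressing line (7 of 69) stood above its background, and it rests on few genes. Among them petD, close to the floor, and psaI, atpH, psaB and rps19 lay between -0.66 and -0.61, not far past 1.5-fold. Centring on all probe sets moved the members' median in this comparison from -0.28 to -0.16, and the share was not recomputed there. Between the highest and the lowest of the 4 arrays, 4 members (ndhF, psbT, petN and psbB) were at least 2-fold apart, 5.8% of the set beside 8.49% of the 12712 probe sets above the floor on all arrays. The median distance between highest and lowest array was 1.39-fold for the members and 1.40-fold for all of these probe sets.

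**Figure D1:**
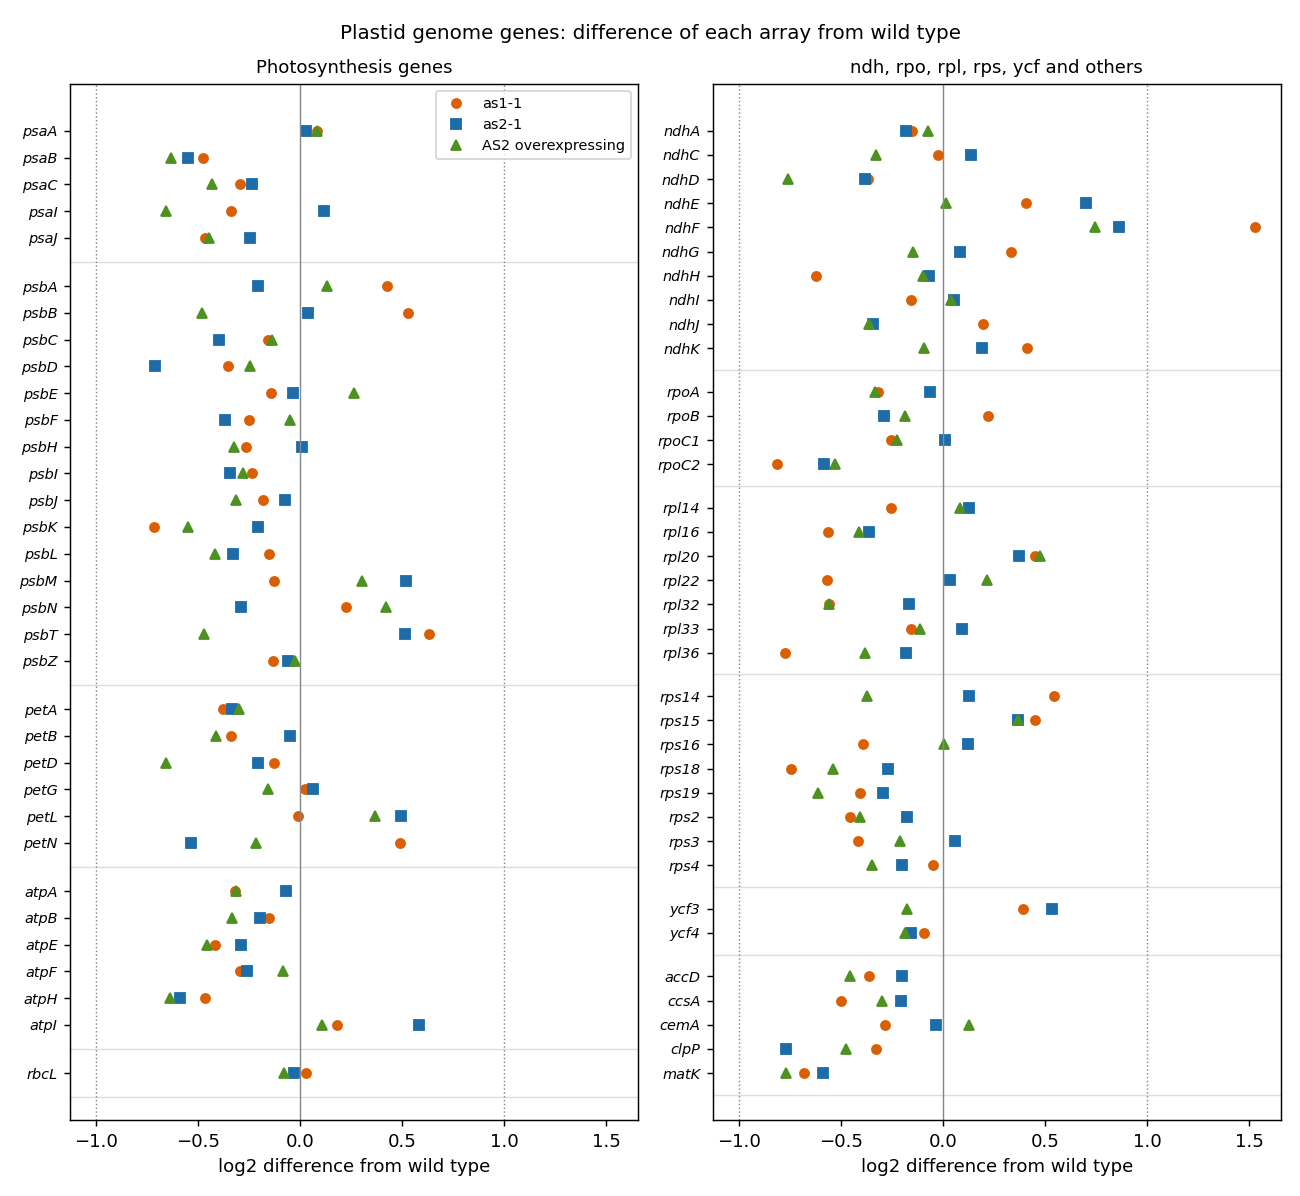
Log2 difference from the wild type array (horizontal axis) of each of the 69 plastid genome genes, grouped by symbol class, for the as1-1 (circles), as2-1 (squares) and AS2 overexpressing (triangles) arrays, 1 array each. Dotted lines mark 2-fold; only ndhF in as1-1 lies beyond them, and most points lie left of 0.

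The order of the arrays was less even than the size of the differences. Wild type was the highest of the 4 arrays for 36 of the 69 members (52.2%), beside 29% of all probe sets above the floor on every array. The AS2 overexpressing array was the lowest for 29 members (42%, beside 25.8%) and the highest for 5 (7.25%, beside 27.3%). The as1-1 array was the lowest for 24 members (34.8%, beside 25.4%) and the highest for 13 (18.8%, beside 21.7%). The as2-1 array was the lowest for 10 (14.5%, beside 24.6%) and the highest for 15 (21.7%, beside 22.1%). Wild type was the lowest for 6 (8.7%, beside 24.2%), namely atpI, ndhE, ndhF, psaA, rpl20 and rps15. Under the other scalings wild type stayed the highest for 29 to 36 members, while the AS2 overexpressing array was the lowest for 20 (29%, beside 18.3%) with centring on all probe sets and for 37 with loess. It was the highest for 13 (18.8%, beside 36.8%) with centring on all probe sets. The as1-1 count of lowest members did not keep its side of the background: it was 27 (39.1%, beside 26.1%) with centring on all probe sets, but 13 (18.8%) after quantile normalization, beside 24.4%, and after loess, beside 23.6%. By class, wild type was the highest for 5 of 6 atp genes (3 after quantile normalization or loess), 8 of 15 psb genes and 3 of 10 ndh genes. With centring on all probe sets these counts were 4, 6 and 1.

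The gene with the largest range was ndhF (ArthCp071), which encodes a large membrane subunit of the NADH dehydrogenase-like complex that carries cyclic electron flow around photosystem I. Its signal was 106.3 in wild type, 315.9 in as1-1, 197.5 in as2-1 and 177.4 under AS2 overexpression. Wild type was thus the lowest array and as1-1 the highest, with a log2 difference of 1.53 between them (2.88-fold). The other arrays stood 0.86 and 0.75 above wild type, under 2-fold. The difference in as1-1 lay between 1.53 and 1.58 under every scaling tried.

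psbB (ArthCp049), for the CP47 inner antenna of photosystem II, and psbT (ArthCp050), for a small subunit of the same photosystem, are neighbours in 1 transcription unit. They were alike in as1-1 and under AS2 overexpression but not in as2-1, where psbT lay 0.51 above wild type and psbB near it. psbB had signals of 565.3 in wild type, 841.0 in as1-1, 592.4 in as2-1 and 403.2 under AS2 overexpression. For psbT they were 439.8, 702.1, 641.5 and 315.8 in the same order. For both genes as1-1 was the highest and the AS2 overexpressing array the lowest, and these 2 arrays were 2.01-fold and 2.15-fold apart; no other member was 2-fold apart between them, beside 3.41% of all probe sets. Against as2-1, psbT in the AS2 overexpressing line lay just under 2-fold (-0.99). Where all probe sets set the centre of each array, psbB no longer reached 2-fold between AS2 overexpression and as1-1.

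petN (ArthCp015), which encodes a very small subunit of the cytochrome b6f complex, was the 1 member 2-fold apart between the mutants. It read 130.2 in wild type, 188.3 in as1-1, 91.9 in as2-1 and 111.6 under AS2 overexpression. Wild type lay between the mutants, with log2 differences from wild type of 0.49 in as1-1 and -0.53 in as2-1. The as1-1 signal was 2.03-fold that of as2-1, where 0.889% of all probe sets were 2-fold apart. Raising the floor to the 60th percentile lost this call, since a signal at the floor gives only a lower bound.

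**Figure D2:**
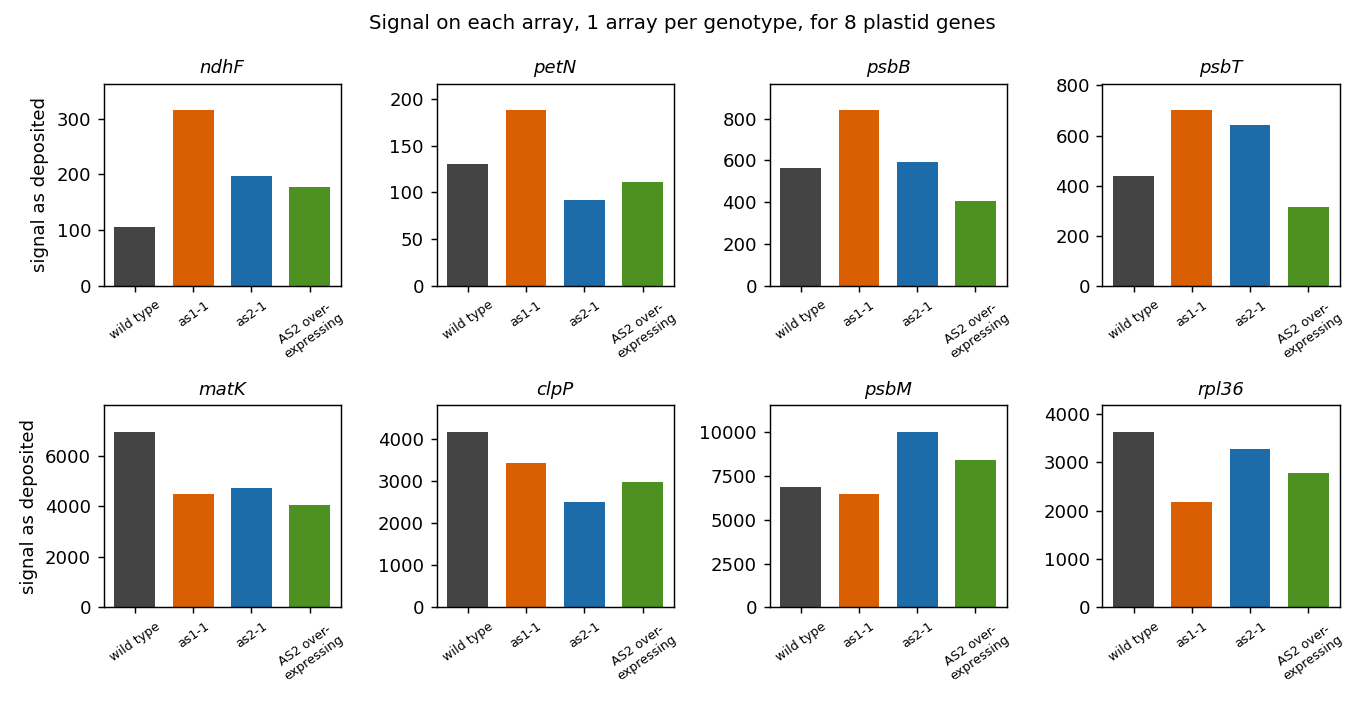
Deposited signal (vertical axis, linear, from 0) of 8 plastid genes on each of the 4 arrays, ordered as wild type, as1-1, as2-1 and AS2 overexpressing, 1 bar per array and no error bars since each genotype has 1 array. Wild type is the lowest array for ndhF and the highest for matK, clpP and rpl36, and as2-1 is the highest for psbM at 10029.1.

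Among the photosynthesis genes, 24 of 33 were lower than wild type in as1-1, 24 in as2-1 and 26 under AS2 overexpression, with median log2 differences of -0.16, -0.21 and -0.30. After quantile normalization 21, 20 and 25 were lower, with medians of -0.08, -0.02 and -0.20. None differed 2-fold from wild type. The 5 photosystem I genes had medians of -0.34, -0.23 and -0.45, the as2-1 value turning to 0.05 after quantile normalization. psaB, for a reaction centre core protein, read 7276.7 in wild type against 5392.5 in as1-1, 5086.5 in as2-1 and 4664.9 under AS2 overexpression. All 3 lines lay below wild type, with log2 differences between -0.63 and -0.48. Its partner in the reaction centre, psaA, had the smallest range of the 69 members, with 970.3, 1059.7, 1011.3 and 1021.9, a range of 1.06-fold. psaC, for the iron-sulphur protein on the stromal side, ran from 955.5 in wild type to 704.0 in the AS2 overexpressing line. The small subunit gene psaJ had signals of 10252.0, 7644.1, 8819.9 and 7488.1. psaI was apart from these in as2-1, where it was the highest of the 4 arrays (2749.8 against 2485.7 in wild type, 2022.3 in as1-1 and 1568.2 in the AS2 overexpressing line).

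The 15 photosystem II genes had median log2 differences of -0.15 in as1-1, -0.21 in as2-1 and -0.25 under AS2 overexpression, with 11 of 15 lower than wild type in each. psbA, which encodes the D1 reaction centre protein, read 648.6 in wild type, 897.8 in as1-1, 574.3 in as2-1 and 707.7 under AS2 overexpression. It was therefore highest in as1-1 (0.43 above wild type) and lowest in as2-1. psbD, for the D2 protein, was highest in wild type at 322.8, with 260.2 in as1-1, 201.7 in as2-1 and 270.9 under AS2 overexpression. Its neighbour psbC, for the CP43 antenna, was also highest in wild type and lowest in as2-1, at 973.4, 898.0, 754.2 and 880.5. psbK, for a small subunit, was 5466.9 in wild type and 3429.5 in as1-1, the largest difference on the lower side in this class (-0.72), with 4832.1 in as2-1 and 3711.4 under AS2 overexpression. psbM, for another small subunit, had its highest signal in as2-1 (10029.1) and its lowest in as1-1 (6470.6), with 6855.2 in wild type and 8414.3 under AS2 overexpression. Its as1-1 difference from wild type was -0.13 and turned to 0.16 after quantile normalization. The genes psbE, psbF, psbL and psbJ, of which the first pair encode cytochrome b559, lay between -0.42 and 0.26 from wild type on every array. psbN, which lies on the other strand between psbT and psbH and serves assembly, was highest in the AS2 overexpressing line (178.5, against 133.9 in wild type, 161.2 in as1-1 and 111.7 in as2-1). psbZ, psbH and psbI ranged by no more than 1.27-fold over the 4 arrays.

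The 6 cytochrome b6f genes had medians nearer to wild type than the psa, psb and atp genes in both mutants ( of -0.07 in as1-1 and -0.13 in as2-1, the former at 0.00 after loess), and -0.26 in the AS2 overexpressing line. petA, for cytochrome f, had signals of 1486.3 in wild type, 1177.7 in as1-1, 1204.7 in as2-1 and 1200.2 under AS2 overexpression, so that wild type stood apart from 3 nearly equal arrays. petB, for cytochrome b6, read 8876.0, 7225.1, 8752.6 and 6627.2 in the same order. petD, for subunit IV, lay close to the floor, at 68.7, 64.7, 60.8 and 43.3. petL was higher in as2-1 (1187.4) and the AS2 overexpressing line (1058.6) than in as1-1 (845.6) and wild type (825.3), and petG ran only from 304.5 to 364.6.

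Among the 6 ATP synthase genes, all but atpI had wild type as the highest array, against 3 of 6 with it highest after quantile normalization or loess, and the class medians were -0.31, -0.23 and -0.32; the as2-1 median turned to 0.07 after quantile normalization. atpH, for the membrane ring subunit, was lowest in the AS2 overexpressing line, with 1924.7 in wild type, 1434.0 in as1-1, 1306.8 in as2-1 and 1232.9 there. The catalytic subunit gene atpB (11684.9, 10824.0, 10428.7 and 9242.4) and its cotranscribed neighbour atpE (10790.7, 8335.6, 9011.3 and 7824.1) were also lowest there. For atpB all 3 differences from wild type were positive after quantile normalization, at 0.17, 0.23 and 0.12. atpI, for a membrane subunit, went the other way, from 90.5 in wild type to 105.7 in as1-1, 138.4 in as2-1 and 97.1 under AS2 overexpression. rbcL, for the large subunit of Rubisco, was nearly level at 483.8 in wild type, 508.4 in as1-1, 483.8 in as2-1 and 456.1 under AS2 overexpression, a range of 1.08-fold.

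With arrays centred on their brighter probe sets, the ndh genes had medians above wild type in the mutants, unlike the psa, psb, pet and atp genes. After quantile normalization the as2-1 medians of psa (0.05) and atp (0.07) were above it as well. The ndh median log2 difference was 0.09 in as1-1 (5 of 10 higher) and 0.07 in as2-1 (6 of 10 higher), and -0.09 in the AS2 overexpressing line (3 of 10 higher), where it turned to 0.02 with centring on all probe sets. Members of all classes with a mean signal under 500, among them ndhF, ndhK, ndhG and ndhH, had medians of 0.20 in as1-1 and -0.03 in as2-1. The part of signal level in the ndh values was not tested. Between the AS2 overexpressing line and as1-1 the class had a median of -0.39, and that sign held in all scalings tried. Beside ndhF, ndhE was highest in as2-1, with 456.6 in wild type, 623.8 in as1-1, 757.2 in as2-1 and 458.6 under AS2 overexpression. ndhK had signals of 126.0, 172.6, 146.8 and 117.8, and ndhG 191.1, 248.1, 206.9 and 172.0, both with as1-1 highest and the AS2 overexpressing line lowest. On the other side stood ndhD, highest in wild type, at 3533.6, 2821.3, 2767.7 and 2079.3, and ndhH, lowest in as1-1, at 136.6, 91.5, 132.9 and 127.2. ndhA and ndhI varied by no more than 1.16-fold over the arrays, while ndhC and ndhJ ranged 1.38-fold and 1.47-fold and were both lowest in the AS2 overexpressing line.

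The rpo genes encode the core of the plastid's bacterial-type RNA polymerase. Their medians were -0.29 in as1-1, -0.18 in as2-1 and -0.28 under AS2 overexpression. rpoC2 had the largest difference below wild type of any member in as1-1 (-0.81), with signals of 550.9 in wild type, 323.5 in as1-1, 375.5 in as2-1 and 379.9 under AS2 overexpression. Wild type stood above 3 similar arrays. rpoC1, in the same transcription unit, read 1077.6, 931.1, 1108.8 and 917.2. rpoB, at the head of that unit, read 87.4, 105.0, 73.0 and 76.4, with as1-1 highest. rpoA, for the alpha subunit, lies in a ribosomal protein unit and read 3309.6, 2738.6, 3237.4 and 2613.8. The unit of rpoB and the gene accD are known as targets of the phage-type polymerase, and accD, for a subunit of acetyl-CoA carboxylase in fatty acid synthesis, had 553.6, 443.7, 491.9 and 401.9.

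The ribosomal protein genes lay differently in the mutants. In as1-1, 12 of 15 were lower than wild type with a median log2 difference of -0.41, while in as2-1 7 of 15 were lower with a median of 0.03. The as1-1 median shrank to -0.27 after quantile normalization and -0.25 after loess, with 10 of 15 lower in each. In the AS2 overexpressing line 10 of 15 were lower and the median was -0.35. Set directly against each other, as1-1 was below as2-1 for 11 of the 15, with a median of -0.28 that lay between -0.25 and -0.30 under the scalings that were tried with centring on all probe sets, quantile normalization or loess. None of the 15 was 2-fold apart in that comparison, and 2 (rpl22 and rpl36) were 1.5-fold apart, beside 6.24% of all probe sets. Members of all classes with a mean signal over 2000 had a median of -0.24 between as1-1 and as2-1, beside -0.09 for other probe sets that bright. The part of signal level in the ribosomal protein values was not tested.

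Among the large subunit genes, rpl36 had signals of 3632.3 in wild type, 2189.4 in as1-1, 3278.6 in as2-1 and 2772.9 under AS2 overexpression, with as1-1 the lowest. rpl22 was also lowest in as1-1, at 2315.4, 1609.9, 2420.4 and 2675.5 in the same order, so that as1-1 stood apart from the rest. rpl16 read 2106.8, 1471.3, 1672.9 and 1576.7. These genes and rpl14 belong to the long ribosomal unit that ends in rpoA. rpl32 was low in as1-1 (2803.0) and the AS2 overexpressing line (2707.0) beside 4011.2 in wild type and 3646.7 in as2-1, and rpl33 varied by 1.19-fold. rpl20 was the exception, lowest in wild type at 310.4 and between 410.4 and 437.1 on the other arrays. The rpl median in the AS2 overexpressing line was -0.11 and turned to 0.01 with centring on all probe sets and to 0.02 after quantile normalization.

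Of the small subunit genes, rps18 was lowest in as1-1, with 2020.7 in wild type, 1241.3 in as1-1, 1712.2 in as2-1 and 1385.4 under AS2 overexpression. rps19, rps2 and rps4 were highest in wild type, and rps19 reached its lowest value in the AS2 overexpressing line (2945.4 against 4528.5). Wild type was the highest for 4 of 8 rps genes, and for 3 after quantile normalization or loess. rps14, downstream of psaA and psaB, had the arrays in the order of psbB, with 103.2 in wild type, 155.1 in as1-1, 115.2 in as2-1 and 79.3 under AS2 overexpression. The log2 difference between the last of these and as1-1 was -0.92. rps15, grouped here with the ndhH unit, was lowest in wild type at 405.2, against 571.6, 535.0 and 520.9. rps3 and rps16 were lowest in as1-1 (2984.6 and 226.3) and highest in as2-1 (4115.6 and 320.3). The rps medians were -0.40 in as1-1, -0.06 in as2-1 and -0.36 under AS2 overexpression, and the as2-1 value turned to 0.01 with centring on all probe sets, 0.02 with loess and 0.04 with quantile normalization.

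Of the remaining genes, matK stood below wild type by a similar amount on the other 3 arrays. This gene, for a maturase that helps splice plastid introns, had 6949.9 in wild type and 4467.6, 4731.7 and 4060.3 in as1-1, as2-1 and the AS2 overexpressing line, log2 differences of -0.68, -0.59 and -0.77. After quantile normalization these differences were -0.39, -0.39 and -0.64. clpP, for the catalytic subunit of the plastid Clp protease, was lowest in as2-1, at 4176.2, 3427.9, 2505.3 and 2991.7. ccsA, which serves cytochrome c assembly, read 5947.3, 4339.5, 5265.1 and 4813.0, and cemA, for an envelope membrane protein, ran from 1100.1 in as1-1 to 1413.8 in the AS2 overexpressing line. ycf3 and ycf4 encode assembly factors of photosystem I. ycf3 was higher in as1-1 (420.9) and as2-1 (461.5) than in wild type (311.5) and the AS2 overexpressing line (274.0), while ycf4 ran only from 538.5 to 616.4.

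The members were next read in their order along the plastid genome, since neighbours often share a primary transcript; such genes are not independent of each other. The median gap between the 68 neighbouring pairs was 0.30 in as1-1, 0.33 in as2-1 and 0.31 under AS2 overexpression on the log2 scale. Both neighbours lay on the same side of wild type in 44, 33 and 40 of these pairs. No gap between members further apart is given here, so these values do not show whether neighbours were more alike. The ribosomal unit from rps19 to rpoA lay on 1 side of wild type in as1-1, with all 7 members lower, between -0.77 (rpl36) and -0.26 (rpl14), and all 7 lower than in as2-1. In as2-1 itself 4 of the 7 were lower than wild type, with a median of -0.06. The pair atpB and atpE and the units of psbE and of psbD were also lower than wild type as a whole in both mutants, though atpB was above it in as1-1 after quantile normalization (0.17) and loess (0.12), atpB in as2-1 after quantile normalization (0.23), and psbE in as2-1 with loess (0.01) or all-probe-set centring (0.03). With the latter psbZ in as2-1 was level with wild type (0.00).

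Other units split within themselves. In as1-1 psbB (0.53) and psbT (0.63) stood above wild type while psbH (-0.27), petB (-0.34) and petD (-0.13), which follow in the same unit, stood below it. In the AS2 overexpressing line all 5 of these genes were below wild type, between -0.66 and -0.33. The psaA unit spread over 1.02 in as1-1, from psaB (-0.48) to rps14 (0.54), and the rpoB unit over 1.03, from rpoC2 (-0.81) to rpoB (0.22). The unit of ndhH spread over 1.07 to 1.13 in the 3 comparisons with wild type. The units were taken from general knowledge of plant plastids, with the data already known.

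**Figure D3:**
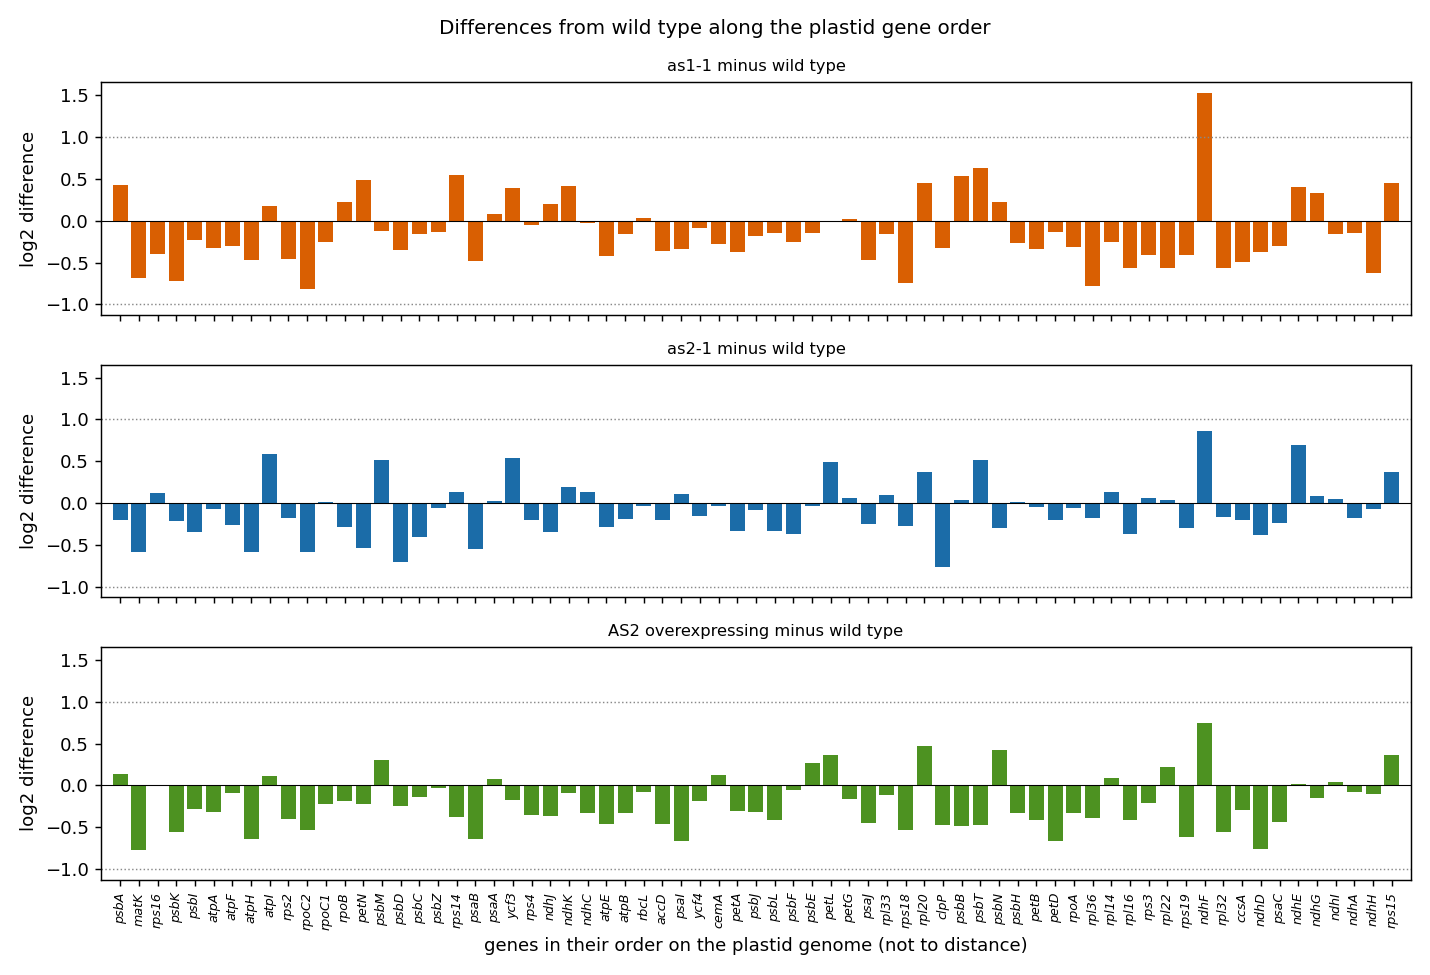
Log2 difference from wild type (vertical axis) of the 69 members in their order on the plastid genome, not to distance, for the as1-1, as2-1 and AS2 overexpressing arrays. Dotted lines mark 2-fold; the run from rpoA to rps19 is below 0 throughout in as1-1 and mixed in as2-1.

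The members' differences from wild type varied with signal level, and the top of the signal range also differed between arrays. The highest signal on the wild type array was 17878.2, against 12194.6 to 13168.8 on the others. Of the 26 members with a mean signal over 2000, all 26 were below wild type in as1-1 with a median of -0.34. Of the 531 other probe sets in this range 72.7% were below, with a median of -0.18. The members' count was 20 of 26 after quantile normalization, beside 47.5% of the others, and 20 after loess, beside 51.6%. In as2-1 the medians were -0.19 for the members and -0.09 for the others, and in the AS2 overexpressing line they were -0.34 and -0.07. The 19 members with a mean signal under 500 had medians of 0.20, -0.03 and -0.16, and the other probe sets in that range had medians of -0.03, -0.04 and -0.03. Spearman's rho between difference and mean signal over the 69 members was -0.526 in as1-1, -0.198 in as2-1 and -0.298 under AS2 overexpression. Over the 12643 other probe sets above the floor it was -0.00728, 0.0327 and 0.116. These points share their arrays, and many share transcripts, so the correlations are descriptions. After loess, which removes a trend with level over all probe sets, the 26 bright members had medians of -0.17 in as1-1, -0.09 in as2-1 and -0.32 under AS2 overexpression, beside -0.01, 0.01 and -0.02 for the others. The part that signal level had in the members' differences was not tested further.

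**Figure D4:**
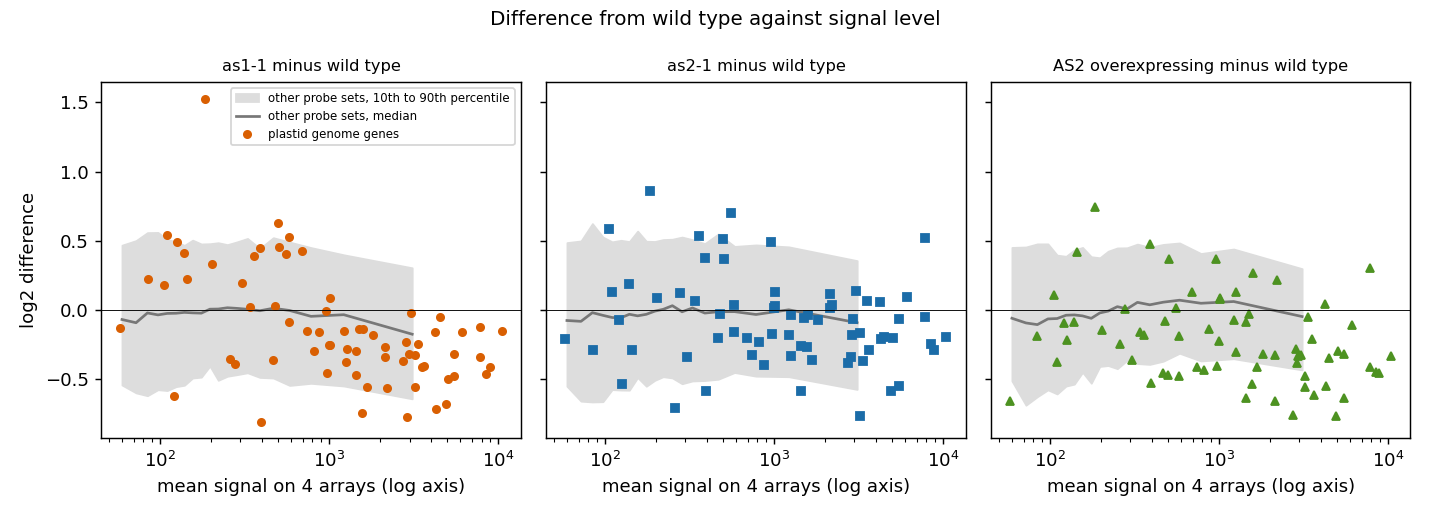
Log2 difference from wild type (vertical axis) against the mean signal on the 4 arrays (horizontal log axis) for the 69 members (coloured points) and the other probe sets above the floor (grey band, 10th to 90th percentile in 20 bins of level; line, median). In as1-1 the bright members lie below 0, with a median of -0.34 over a signal of 2000, and the dim ones scatter above and below it.

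Plastid photosystems and ATP synthase hold subunits from both genomes, so their nuclear genes were set beside them. The naming table held 9 such genes by symbol, chosen with earlier results on some of them known. In the mutants these were further below wild type than the plastid genes: 8 of 9 were lower in each, with medians of -0.46 in as1-1 and -0.56 in as2-1, against -0.16 and -0.21 for the 33 plastid photosynthesis genes. Signal level differed too: apart from LHCB4.3 the nuclear genes read 1726.0 or more on every array, while the plastid genes included dim ones. Plastid members of all classes with a mean signal over 2000 had medians of -0.34 in as1-1 and -0.19 in as2-1. The part of signal level in this contrast was not tested. LHCB4.2, for a minor antenna protein, was 9224.4 in wild type, 3592.7 in as1-1, 1726.0 in as2-1 and 5852.9 under AS2 overexpression. PSBY, for a small photosystem II protein, read 7160.2, 4071.5, 3433.4 and 5331.1, and PSB27, for a photosystem II assembly protein, 5554.3, 2939.2, 2719.5 and 4314.1. PSAN, for a lumenal subunit of photosystem I, had 6630.9, 3746.4, 3564.4 and 5022.8. In these 4 genes, which had the largest drops of the 9 in both mutants, the AS2 overexpressing line lay between the mutants and wild type. LHCB4.1 and PSBW were ordered alike, while PSAE-1 under AS2 overexpression was level with as1-1. ATPC1 was level with wild type there (0.01). LHCB4.3 was above wild type in as1-1 (0.29), as2-1 (0.48) and the AS2 overexpressing line (0.38).

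Of the 9 nuclear genes, 3 were 2-fold lower in as2-1 (LHCB4.2, PSBY and PSB27) and 1 in as1-1 (LHCB4.2), beside 1.99% and 1.61% of all probe sets in that direction; 0 of the 33 plastid genes were. With AS2 overexpressed the medians were nearer each other, at -0.36 for the nuclear and -0.30 for the plastid genes. Between the AS2 overexpressing line and as2-1 they lay on opposite sides, with the nuclear genes higher (median 0.44, 8 of 9) and the plastid photosynthesis genes lower (median -0.13, 21 of 33). These signs held with centring on all probe sets, quantile normalization and loess. After loess the mutants' medians were -0.27 and -0.44 for the nuclear genes and -0.08 and -0.09 for the plastid genes. RCA, for Rubisco activase and the 1 named gene of the green mesophyll list, was also highest in wild type, at 9159.9, 4971.3, 5583.6 and 6761.6; its part in the plastid values was not tested.

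**Figure D5:**
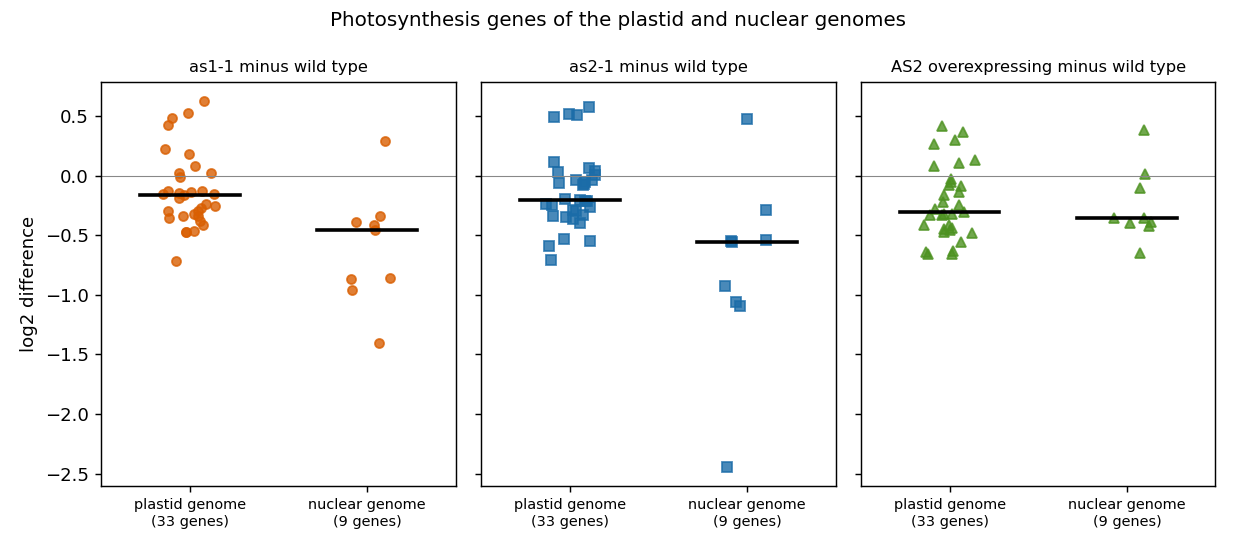
Log2 difference from wild type (vertical axis) of 33 photosynthesis genes of the plastid genome and 9 of the nuclear genome in as1-1, as2-1 and the AS2 overexpressing line; each point is a gene on 1 array, spread sideways at random, and bars are medians. Nuclear medians are -0.46, -0.56 and -0.36, plastid medians -0.16, -0.21 and -0.30.

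Of the nuclear genes known to act on plastid transcripts, the table named few: 0 of 6 sigma factors, 0 of 13 proteins of the plastid polymerase complex, 1 of 3 phage-type organelle polymerases and 1 of 9 genes for processing and stability. AT5G15700, which encodes the phage-type polymerase shared by plastids and mitochondria, read 31.9 in wild type, below the floor, and 67.4, 50.7 and 58.2 in as1-1, as2-1 and the AS2 overexpressing line. Its differences from wild type are lower bounds of 0.63, 0.23 and 0.46. AT5G42310, for a pentatricopeptide repeat protein known in maize for processing petB and petD transcripts, had 319.8, 246.8, 257.0 and 282.4.

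The plastid genes were also compared between the arrays other than wild type. The median log2 difference was -0.10 between as1-1 and as2-1, -0.14 between the AS2 overexpressing line and as2-1, and -0.04 between the AS2 overexpressing line and as1-1, beside 0.00, 0.02 and 0.02 over all probe sets. Counts at 2-fold were 1 (petN), 0 and 2 (psbB and psbT) of 69, beside 0.889%, 3.35% and 3.41% of all probe sets. At 1.5-fold they were 6, 5 and 6 of 69, beside 6.24%, 14.8% and 15.9%. Between the mutants the members' share was above that of all probe sets at both folds, but on few genes. At 2-fold it was petN alone, a call lost with the floor at the 60th percentile. In the other comparisons the share was below that of all probe sets, only slightly so for the 2 of 69 against as1-1. Lower on the first-named array were 40, 50 and 39 members, beside 50.7%, 48% and 48.3%. The largest differences between the AS2 overexpressing line and as2-1 were those of psbT (-0.99), psaI (-0.77), ycf3 (-0.71) and ndhE (-0.69) on the lower side and psbN (0.71) on the higher. All 8 rps genes were below their as2-1 level there, and 7 of 8 were with centring on all probe sets. Against as1-1, rpl22 was higher in the AS2 overexpressing line by 0.78, and ndhF, petN and rps14 were lower by more than 1.5-fold beside psbB and psbT.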

How the data were processed

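The values analysed were the linear signal intensities per probe set that the authors deposited in the series' value table for 4 arrays; per the labels' protocols these came from biotin-labelled cRNA, with software and scaling not given in the sources used here. Trimming the top and bottom 2% of probe sets left a mean of 198 on each array. Signals were put on the log2 scale (0 set to 0.1), arrays were shifted to a common median of their brighter probe sets (mean level at the median or higher), and values below a floor of 42.9, the 40th percentile after scaling, were raised to it. A difference with 1 array at the floor is a lower bound, and with both at it none was computed. Groups came from the genotype labels, giving 6 pairwise comparisons of 1 array against 1, with no test. Calls used 2-fold and, as an alternative, 1.5-fold. The number of arrays limits precision; intensities give no counts and no depth.

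Probe sets were named through a platform annotation that can be old (13513 with 1 gene, 503 with several), of which 13436 matched the RefSeq table of assembly TAIR10.1 by gene ID. Mitochondrial genes were matched by symbol. That table was used for names and gene order only, and no coordinates or sequences are given, since the build behind the array files is not given in the sources used here. Named were members 2-fold apart in any comparison, those with the largest and smallest difference from wild type in each class, standard genes of each complex, and up to 4 genes per nuclear list; further members were named after their values were seen. The members and lists were chosen with earlier results of these data known. No gene matched the rule for nuclear plastid ribosomal protein genes. Alternatives were other centrings, quantile normalization, loess (span 0.4), other floors and other members. Simulated data were used to test how differences were called. Python 3.11.15, numpy 2.4.6, pandas 2.3.3, statsmodels 0.14.6 and matplotlib 3.10.9 were used.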

Additional observations from a re-analysis of the deposited data

How the results depend on the processing

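The 6 medians and the 6 counts at 2-fold were recomputed with other centrings, normalizations, floors and members; a median was taken as moved when it shifted by 0.1 or more on the log2 scale, a tolerance that rests on no replicate. Centring on all probe sets brought the AS2 overexpressing median against wild type to -0.16, that against as1-1 to 0.0247 from -0.04, and the count in the latter to 1 (psbT). Quantile normalization gave medians of -0.0950 in as1-1 and -0.0227 in as2-1 against wild type, and loess gave -0.0968 and -0.0384, and -0.15 for the AS2 overexpressing line against as1-1. Without centring, with quantile normalization and with loess the count for the AS2 overexpressing line against as2-1 was 1 (psbT). A floor at the 60th percentile took the count between the mutants to 0 (differences from a signal at the floor are lower bounds), and the duplicated genes, added after the data were examined, took the as1-1 count to 2 through ycf2. At 1.5-fold the counts against wild type were 8, 6 and 8 for as1-1, as2-1 and the AS2 overexpressing array, 6 between the mutants, and 5 and 6 for the AS2 overexpressing line against as2-1 and as1-1. The cause of these shifts was not tested. The other 59 medians and 60 counts stayed within tolerance, but these totals include settings that could not change a value. Leaving out inverted repeat genes or probe sets with shared names, or using 1 value per gene, left the same 69 members. A lower floor, or none, could not move the members either, since all 69 were above the floor on every array. No paired analysis was possible because each genotype has 1 array, and no array could be left out for the same reason.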

Other observations

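The 8 probe sets listed with both copies of a duplicated plastid gene cover 7 genes, and their signals cannot be assigned to a copy. ycf2, for a large essential plastid protein, had signals of 46.1 in wild type, 101.1 in as1-1, 63.7 in as2-1 and 50.5 under AS2 overexpression. Its log2 difference in as1-1 was 1.09, with wild type close to the floor of 42.9. ndhB, for a membrane subunit of the NADH dehydrogenase-like complex, read 57.2, 101.0, 80.4 and 62.5, so that as1-1 was the highest and wild type the lowest, as for ndhF. The ribosomal protein genes rpl2 (10398.9, 8501.7, 9041.4 and 8006.0), rpl23 (6687.0, 4852.3, 5667.4 and 4868.3) and rps7 (3176.1, 2989.7, 2661.1 and 2432.1) were highest in wild type. ycf1, for a protein of the import machinery, read 2740.5, 2462.3, 2722.1 and 2020.5. The 2 probe sets of rps12, a gene whose parts are joined by trans-splicing, disagreed in as1-1, at -0.15 and 0.37 on the log2 scale.

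Genes of the mitochondrial genome, the other organelle genome, were dim on these arrays. Of 18 probe sets matched by symbol, differences from wild type were computed for 8 (as1-1), 5 (as2-1) and 6 (AS2 overexpressing), with median log2 differences of 0.29, 0.11 and 0.04, several of them lower bounds. nad4, for a subunit of respiratory complex I, read 270.8 in wild type, 356.5 in as1-1, 298.1 in as2-1 and 217.5 under AS2 overexpression. cox1, for a subunit of cytochrome c oxidase, read 77.5, 106.8, 119.3 and 92.7.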
